A study of Mus musculus with 6 samples.

Results

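The transcripts of 10 Notch pathway genes were measured in embryonic mouse heart cells: the receptors Notch1, Notch2 and Notch4, the ligands Jag1, Jag2 and Dll4, and the target genes Hes1, Hey1, Hey2 and Heyl. They were chosen by symbol, with earlier results of these data known, and all 10 have a row among the 15159 rows of the count table. All 10 were also among the 14758 genes with enough counts to be tested. Of these 10 genes 1 passed the test, the ligand gene Jag1, which fell in H3K9M cells, and the other 9 had lower means in H3K9M without passing. Among all tested genes 1.05% were called lower, and the Jag1 call was lost in 4 of the 6 fits that left out 1 library. That call was also lost in a fit with a block for replicate number.

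The cells were embryonic cardiac cells of day 18.5 from C57BL/6 x 129S4/SvJae mice, cultured for 4 days on PDMS, a silicone, at a stiffness of 13 kPa. The H3K9M group carried an inducible histone H3.3 with methionine in place of lysine 9, labelled as suppressed in methylation at that residue, and the H3WT group carried inducible wild-type H3.3. Both groups received doxycycline at 2 µg/ml on days 0, 1 and 2, and each had 3 libraries of polyadenylated RNA. The promoter of the transgene and the share of cells that express it are not stated, and the labels do not tie a library to an animal. The p-values therefore describe spread among 6 libraries, which may be technical. The titles of replicates 1 and 3 of both groups carry the word Soft and those of replicate 2 do not, while the stated culture protocol is the same for all 6.

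Notch receptors are single-pass membrane proteins that are activated by Jagged or Delta-like ligands on a neighbouring cell. Binding leads to cleavage by ADAM proteases and γ-secretase, and the freed intracellular domain joins the DNA-binding protein RBPJ to switch on Hes and Hey repressor genes. In the developing heart the pathway is best known from the endocardium, the valves, the trabeculae and the coronary vessels, where Dll4 and Notch4 are typical of endothelial cells, and Jag1 is also used by smooth muscle precursors.

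Libraries held 55550379 to 67994773 counts. Levels are given as CPM, counts scaled to 1e+06 per library after TMM adjustment, and differences as log2 fold changes of H3K9M over H3WT from edgeR's quasi-likelihood test, with the standard error (SE) and the p-value adjusted over all tested genes. At a threshold of 0.05, 0.935% of all tested genes were called higher in H3K9M, beside the 1.05% called lower. The genes for H3.3 do not check the labels, since transgene and endogenous transcripts are not told apart: H3f3a averaged 1360 ± 109 CPM in H3K9M and 1465 ± 125 CPM in H3WT (SD, n = 3 each), and H3f3b 216 ± 12.6 CPM in H3K9M and 241 ± 18.1 CPM in H3WT. The cardiomyocyte marker Myh6 averaged 15723 ± 1426 CPM in H3K9M and 14926 ± 2157 CPM in H3WT, and no marker of the cardiomyocyte list was at 0.

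Jag1 was the member with the clearest difference. This gene encodes the Jagged ligand that is mutated in Alagille syndrome of humans, and lies on chromosome 2 at 137081456 to 137116644, minus strand, on mouse build GRCm38 (GENCODE M21). Jag1 stood at 64.4, 63.1 and 75.8 CPM in H3K9M replicates 1 to 3, against 147, 118 and 101 CPM in H3WT replicates 1 to 3. All 3 H3K9M libraries lay below all 3 H3WT libraries, and the H3WT libraries were the more spread out. The mean was 67.8 ± 7.03 CPM in H3K9M and 122 ± 23.3 CPM in H3WT (SD, n = 3 each), a ratio of 0.555. The log2 fold change was -0.85 ± 0.14 (SE, 95% interval -1.16 to -0.53) with an edgeR adjusted p of 0.0254. In the authors' deposited table Jag1 has a log2 fold change of -0.95 with a DESeq2 adjusted p of 4.7e-07. That table is of the same series and is not a separate experiment, and it does not hold the same counts as those used here. Jag1 is the 1 gene of the 10 that passes there as lower in H3K9M, where 2.3% of the genes listed do.

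The direction of the Jag1 difference held without each library in turn, and its call did not. Without H3K9M replicate 1, 2 or 3 the edgeR adjusted p of Jag1 was 0.0824, 0.111 and 0.0534, and without H3WT replicate 2 it was 0.109. Without H3WT replicate 1 it was 0.0262 and without H3WT replicate 3 it was 0.00892. Over these 6 fits the log2 fold change of Jag1 lay between -0.97 and -0.70. With all 6 libraries and a block for replicate number, the edgeR adjusted p of Jag1 was 0.107.

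**Figure D1:**
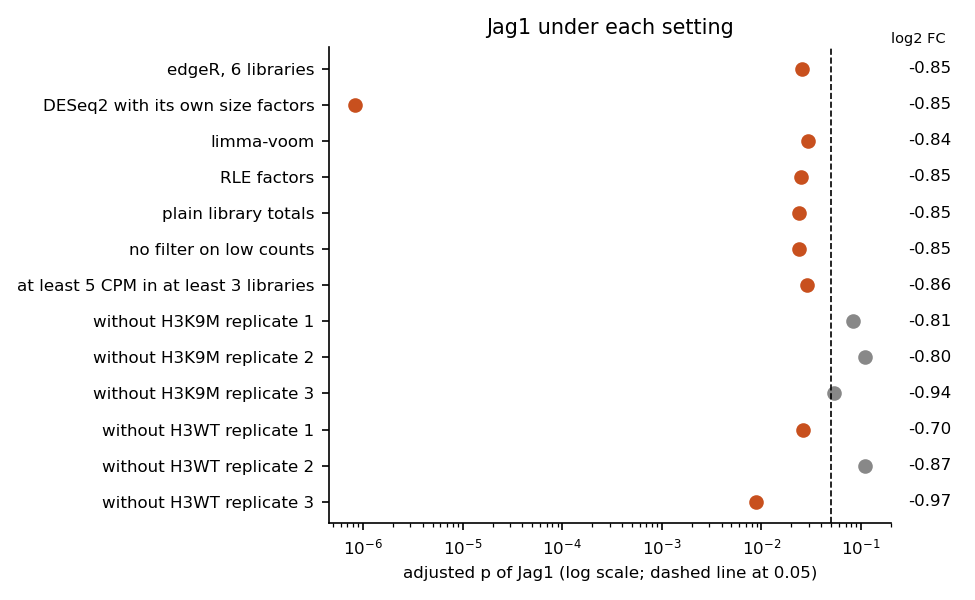
Adjusted p of Jag1 (log axis, dashed line at 0.05) in edgeR with all 6 libraries, with other tools, scalings and filters, and without each library, with the log2 fold change of H3K9M over H3WT at the right. The fit with a block for replicate number, in which Jag1 did not pass, is not drawn. Orange points are under 0.05 and grey points are not; the fold change stays between -0.97 and -0.70, while 4 of the 6 fits that leave out 1 library lie past the line.

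The other ligands did not pass the test. Jag2, the second Jagged ligand, stood at 9.75, 14.8 and 11.6 CPM in the H3K9M libraries, against 14.8, 13.1 and 16.3 CPM in the H3WT libraries, so the groups overlapped (log2 fold change -0.29 ± 0.17, 95% interval -0.68 to 0.10, edgeR adjusted p = 0.450). Dll4, the Delta-like ligand of arterial and sprouting endothelium, was sparse, with 13, 40 and 78 counts in the H3K9M libraries and 175, 90 and 42 counts in the H3WT libraries. These are 0.222, 0.658 and 1.36 CPM in H3K9M and 3.12, 1.62 and 0.617 CPM in H3WT. H3WT replicate 3 was below 2 of the 3 H3K9M libraries, and the interval of the log2 fold change was wide (-1.25 ± 0.73, 95% interval -2.91 to 0.41, edgeR adjusted p = 0.446). The Dll4 estimate also rested on single libraries, at -0.58 without H3WT replicate 1 and -2.01 without H3K9M replicate 3. Dll1, another Delta-like ligand and not one of the 10 genes, averaged 0.335 ± 0.0769 CPM in H3K9M and 0.579 ± 0.0696 CPM in H3WT, with no overlap (-0.78 ± 0.49, edgeR adjusted p = 0.481).

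Among the receptors, Notch4 came nearest to the threshold. Notch4, a receptor known mainly from endothelial cells, stood at 8.38, 7.49 and 6.18 CPM in the H3K9M libraries, against 10.2, 12.3 and 15.1 CPM in the H3WT libraries. The groups did not overlap, and the log2 fold change was -0.77 ± 0.19 (95% interval -1.19 to -0.35, edgeR adjusted p = 0.0808). With DESeq2 on the same counts the adjusted p of Notch4 was 0.00524. In the authors' deposited table, Notch4 has a log2 fold change of -0.60 with an adjusted p of 0.187.

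Notch2 and Notch1 were more abundant and differed less. Notch2, a receptor used by smooth muscle and valve mesenchyme, stood at 125, 116 and 128 CPM in the H3K9M libraries, against 156, 148 and 131 CPM in the H3WT libraries. These values did not overlap, although H3WT replicate 3 was close to H3K9M replicate 3, and the log2 fold change was -0.23 ± 0.09 (95% interval -0.43 to -0.04, edgeR adjusted p = 0.222). Notch1, the main receptor of endocardium and arterial endothelium, stood at 72.8, 67.6 and 51.2 CPM in the H3K9M libraries, against 83.3, 72.7 and 91.5 CPM in the H3WT libraries. H3K9M replicate 1 was level with H3WT replicate 2, so the groups overlapped (-0.37 ± 0.14, 95% interval -0.68 to -0.06, edgeR adjusted p = 0.232). Notch3, the receptor of mural cells and not one of the 10 genes, averaged 209 ± 24.5 CPM in H3K9M and 217 ± 78.1 CPM in H3WT (-0.06 ± 0.23, edgeR adjusted p = 0.937). Its sign turned without H3K9M replicate 1 (0.03) or H3WT replicate 1 (0.23).

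Of the target genes, Heyl had the clearest separation. HEYL is a bHLH repressor of vascular smooth muscle and other Notch-responsive cells. Heyl stood at 21.1, 44.3 and 42.5 CPM in the H3K9M libraries, against 54.7, 68.0 and 51.1 CPM in the H3WT libraries. The groups did not overlap, with H3K9M replicate 1 far below the other libraries, and the log2 fold change was -0.69 ± 0.25 (95% interval -1.26 to -0.11, edgeR adjusted p = 0.225). That library set much of the size: leaving it out gave Heyl a value of -0.42. DESeq2 on the same counts gave Heyl an adjusted p of 0.0458, and in the authors' deposited table it is 0.115.

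Hey2, Hey1 and Hes1 overlapped between the groups. Hey2, the repressor of ventricular muscle and arterial endothelium, stood at 5.53, 6.37 and 8.71 CPM in H3K9M, against 9.16, 7.55 and 9.83 CPM in H3WT (-0.37 ± 0.20, 95% interval -0.82 to 0.09, edgeR adjusted p = 0.418). Hey1, its close relative of atrial muscle and endothelium, stood at 0.973, 0.724 and 1.68 CPM in H3K9M, against 2.10, 1.91 and 1.43 CPM in H3WT, with 44 to 96 counts per H3K9M library and 97 to 118 per H3WT library (-0.69 ± 0.40, 95% interval -1.59 to 0.22, edgeR adjusted p = 0.444). Hes1, a widely used target that also answers to other signals, stood at 55.6, 78.8 and 76.7 CPM in H3K9M, against 68.7, 78.9 and 82.8 CPM in H3WT. It had the smallest difference of the 10 genes (-0.13 ± 0.14, 95% interval -0.44 to 0.18, edgeR adjusted p = 0.706), and its sign turned without H3K9M replicate 1 (0.02).

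**Figure D2:**
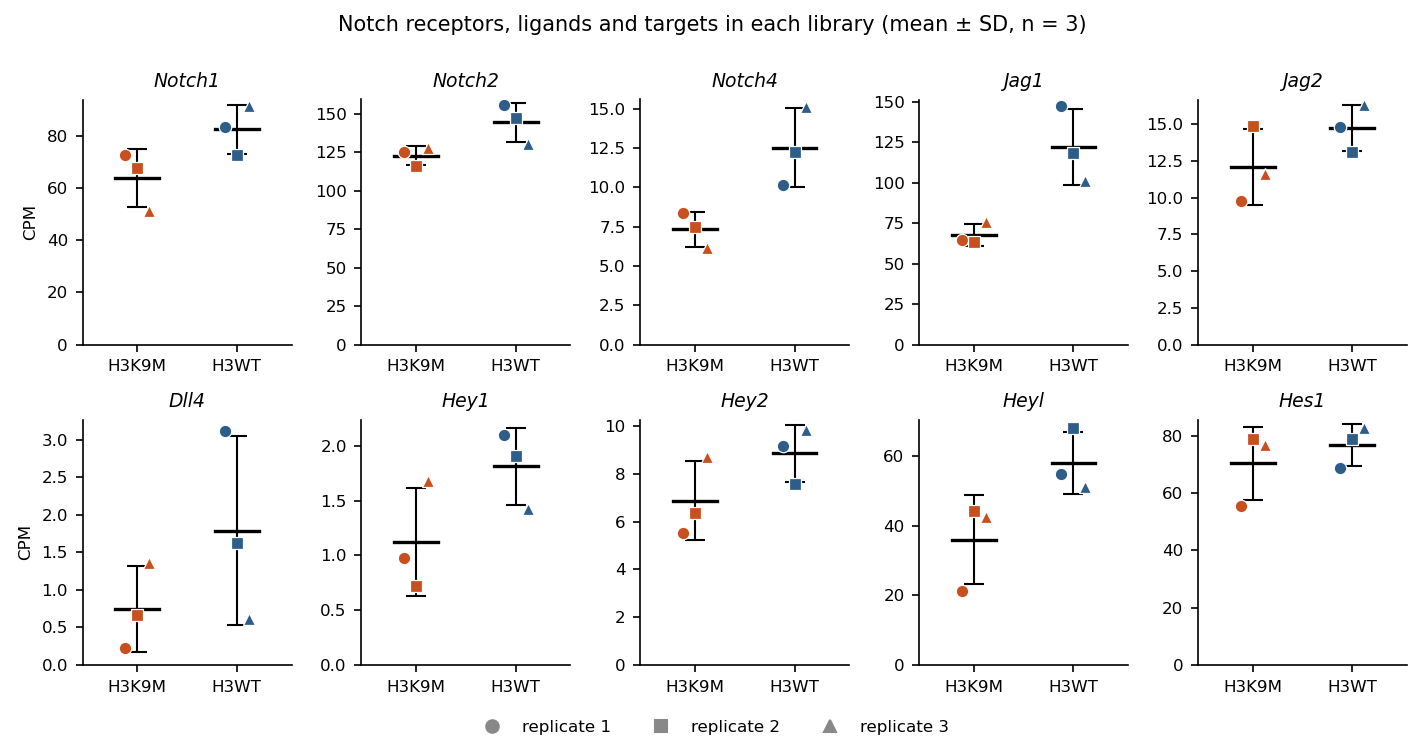
CPM of the 10 genes (linear axis from 0) in each H3K9M library (orange) and each H3WT library (blue), with symbols for the replicate number and bars for the mean ± SD of 3 libraries. Jag1, Notch2, Notch4 and Heyl show no overlap between the groups, while Dll4 ranges from 0.222 to 1.36 CPM in H3K9M and from 0.617 to 3.12 CPM in H3WT.

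All 10 log2 fold changes were negative, with a median of -0.53. Over all 14758 tested genes the share with a negative value was 50.5% and the median was -0.00. The 3 H3K9M libraries lay wholly below the 3 H3WT libraries for 4 of the 10 genes, against 11.3% of all tested genes, and wholly above them for 0 of the 10. At an unadjusted p under 0.05 in edgeR, 5 of the 10 were lower (Notch1, Notch2, Notch4, Jag1 and Heyl) and 0 higher, where 8.61% of all tested genes were lower and 7.78% higher. At the adjusted threshold 1 was lower and 0 were higher. Without 1 library at a time, the log2 fold change spanned -0.48 to -0.23 for Notch1, -0.47 to -0.16 for Jag2, -0.57 to -0.23 for Hey2 and -1.09 to -0.46 for Hey1. DESeq2 called 3 of the 10 lower (background 3.65%) and limma-voom called 1 (background 0.759%), and neither called any of the 10 higher. The 10 genes were measured in the same 6 libraries, so these counts are not 10 separate observations. The genes were also chosen with earlier results of these data known, so the shares of all tested genes describe and do not test the set.

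**Figure D3:**
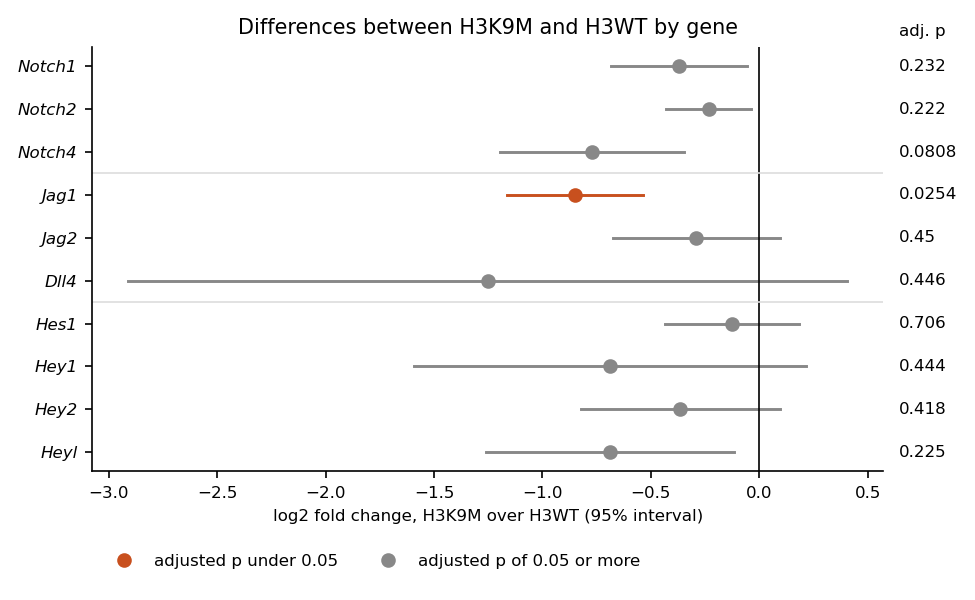
Log2 fold change of H3K9M over H3WT with its 95% interval for receptors, ligands and targets from top to bottom, with the edgeR adjusted p at the right. Jag1, in orange, is the 1 gene under 0.05; the intervals of Notch1, Notch2, Notch4 and Heyl also lie below 0, and those of Jag2, Dll4, Hes1, Hey1 and Hey2 cross it.

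Levels of different genes were compared per kilobase of merged exons (GENCODE M21). Merged exons join those of all annotated transcripts of a gene, 11 for Notch1 and 2 for Notch2. They can be longer than the transcripts expressed here, so the order and shares are approximate. The order of the 10 genes by mean CPM per kilobase was the same in both groups: Hes1, Jag1, Notch2, Heyl, Notch1, Jag2, Hey2, Notch4, Hey1 and Dll4. Hes1 averaged 34.5 ± 6.30 CPM per kilobase in H3K9M and 37.7 ± 3.59 in H3WT, and Dll4 0.194 ± 0.149 in H3K9M and 0.464 ± 0.327 in H3WT (SD, n = 3 each). In H3K9M, Jag1 at 11.6 ± 1.21 and Notch2 at 11.4 ± 0.564 CPM per kilobase did not differ beyond their spread, while in H3WT Jag1 at 20.9 ± 4.00 stood above Notch2 at 13.4 ± 1.19. Jag2 and Hey2 also lay within their spread of each other in both groups, and so did Hey1 and Dll4. In H3WT, Jag2 was at 2.12 ± 0.227 and Hey2 at 1.93 ± 0.255 CPM per kilobase.

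Jag1 made up most of the ligand transcript level in both groups. Of the summed CPM per kilobase of Jag1, Jag2, Dll1 and Dll4, Jag1 held 87.7%, 82.1% and 86.0% in the H3K9M libraries and 89.1%, 89.2% and 86.9% in the H3WT libraries. The sum itself was 12.6, 13.2 and 15.1 CPM per kilobase in the H3K9M libraries, against 28.3, 22.8 and 19.9 in the H3WT libraries. Among the 4 receptors, Notch3 held 60.4 ± 3.86% of the summed level in H3K9M and 55.2 ± 8.63% in H3WT, Notch2 held 26.9 ± 2.67% in H3K9M and 28.7 ± 3.67% in H3WT, and Notch4 held 2.15 ± 0.382% in H3K9M and 3.47 ± 1.42% in H3WT. The summed receptor level was 42.6 ± 2.41 CPM per kilobase in H3K9M and 47.6 ± 10.2 in H3WT. These sums describe the libraries and were not tested, and they too depend on the merged exon lengths.

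**Figure D4:**
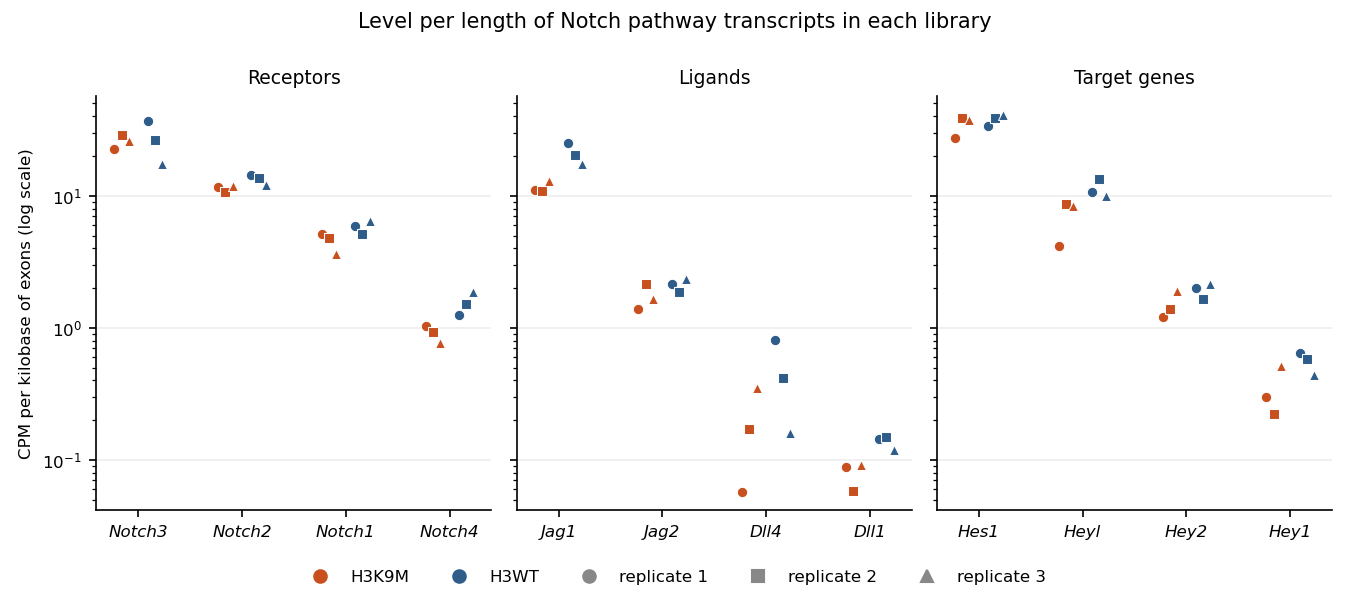
CPM per kilobase of merged exons (log axis) of 4 receptors, 4 ligands and 4 target genes in each H3K9M library (orange, left of each pair) and each H3WT library (blue), with symbols for the replicate number. Notch3, Jag1 and Hes1 lead their classes in all 6 libraries, and Dll4 spans 0.0576 to 0.353 in H3K9M and 0.160 to 0.809 in H3WT.

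The upstream sequences of 3 members are shown. Jag1 is the gene that passed the test, and Dll4 has the most negative value. Hey2 is the 1 gene, of the 7 members with a promoter entry, whose upstream window holds the RBPJ core motif. RefSeq's promoter table (build GRCm38.p6) gave an entry for 7 of the 10 genes and none was matched for Hey1, Heyl and Hes1. Each sequence runs 5′ to 3′ on the strand of the gene and ends before the first annotated exon base. Capitals mark TGGGAA (RBPJ core, also read as its reverse complement) and CACGCG (a class C site bound by HES and HEY proteins, likewise on both strands).
Jag1, chr2:137116645-137116770, minus strand: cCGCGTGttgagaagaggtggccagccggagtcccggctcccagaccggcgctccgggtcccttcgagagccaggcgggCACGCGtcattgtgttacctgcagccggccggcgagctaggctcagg
Dll4, chr2:119325534-119325783, plus strand: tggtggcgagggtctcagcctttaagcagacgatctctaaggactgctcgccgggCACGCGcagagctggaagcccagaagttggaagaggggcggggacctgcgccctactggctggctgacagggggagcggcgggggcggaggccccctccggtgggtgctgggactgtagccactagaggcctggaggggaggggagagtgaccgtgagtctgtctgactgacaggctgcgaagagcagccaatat
Hey2, chr10:30842802-30843033, minus strand: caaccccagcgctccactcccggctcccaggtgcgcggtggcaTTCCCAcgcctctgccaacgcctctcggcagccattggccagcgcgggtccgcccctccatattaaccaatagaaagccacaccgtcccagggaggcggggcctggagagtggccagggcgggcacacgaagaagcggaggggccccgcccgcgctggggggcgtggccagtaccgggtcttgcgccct

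In the 250 bases before the RefSeq start, Jag1 held CACGCG at 171 and, on the other strand, at 249 bases upstream, Dll4 held it at 195 bases and Notch2 at 42 bases. Hey2 held TGGGAA, on the opposite strand, at 207 bases upstream. Over 32851 promoter entries of the same length 21.6% held TGGGAA on either strand and 7.62% held CACGCG. The E-box CACGTG, another HES and HEY motif, was in 6.02% of the entries and in none of the 7 members. A match in these letters is a description of the sequence, and no binding was measured here.

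Elsewhere in the pathway, most genes had small differences. Of 81 other genes listed by role 74 were tested, 1 fell and 0 rose at an adjusted p under 0.05 in edgeR (DESeq2 called 6 lower and 0 higher, limma-voom 1 lower and 0 higher). The shares called lower among all tested genes were 1.05% in edgeR, 3.65% with DESeq2 and 0.759% with limma-voom. At an unadjusted p under 0.05, 11 of the 74 were lower and 2 higher in edgeR, beside 8.61% and 7.78% of all tested genes. The median log2 fold change of the 74 was -0.10, and 55 of them were negative, against 50.5% of all tested genes. The gene that fell was Mfap2, a protein of elastin microfibrils that was found to bind Jagged and Notch outside the canonical pathway. Mfap2 stood at 5.45, 9.22 and 5.39 CPM in the H3K9M libraries, against 36.6, 30.9 and 20.9 CPM in the H3WT libraries, with no overlap (-2.14 ± 0.27, edgeR adjusted p = 0.00819). This call held without each library in turn, with an adjusted p of 0.0484 at most. Dlk1, another non-canonical ligand, averaged 28.3 ± 6.20 CPM in H3K9M and 54.4 ± 29.7 CPM in H3WT (-0.94 ± 0.35, edgeR adjusted p = 0.228), and its value was -0.43 without H3WT replicate 1.

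Nrarp, a feedback inhibitor and direct target of Notch, was the target outside the Hes and Hey families with the smallest p. It stood at 2.53, 3.88 and 3.47 CPM in the H3K9M libraries, against 6.04, 5.48 and 7.51 CPM in the H3WT libraries, with no overlap (-0.94 ± 0.23, edgeR adjusted p = 0.0793). With DESeq2 the adjusted p of Nrarp was 0.00466. In the authors' deposited table Nrarp has a log2 fold change of -1.46 with a DESeq2 adjusted p of 0.000242. Of 12 tested genes in that class 10 had negative values and 0 passed in edgeR, with 4 lower and 0 higher at an unadjusted p under 0.05. Over all tested genes 50.5% had negative values and 8.61% were lower at that unadjusted p. The lower genes of the class were Nrarp, Sox17, Gja5 and Gja4. Sox17, Gja5, Gja4 and Efnb2 are also on the arterial marker list below, so the tallies of this class and that list share genes. Ccnd1, a cyclin gene with many inputs, averaged 264 ± 105 CPM in H3K9M and 199 ± 63.2 CPM in H3WT (0.40 ± 0.29, edgeR adjusted p = 0.544), and its value was 0.03 without H3K9M replicate 1. Hes6, a Hes family member that is not a typical Notch target, averaged 22.6 ± 1.61 CPM in H3K9M and 24.5 ± 1.99 CPM in H3WT (-0.12 ± 0.10, edgeR adjusted p = 0.622).

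The machinery that cuts, modifies and reads the receptors did not pass either. Of 10 tested genes of receptor processing 0 were called, with Adam10, the ADAM protease of ligand-dependent cleavage, at -0.16 ± 0.07 (edgeR adjusted p = 0.300) and Furin, the protease of receptor maturation, at -0.02 ± 0.08 (0.949). The class of 5 sugar-transfer genes had 2 higher at an unadjusted p under 0.05, against 7.78% of all tested genes, among them Pofut1, which adds O-fucose to Notch, at 0.20 ± 0.08 (edgeR adjusted p = 0.250). Of 13 tested genes of endocytosis and ubiquitination Numbl, a relative of the Notch inhibitor Numb, had the smallest p, at -0.30 ± 0.08 (edgeR adjusted p = 0.120; DESeq2 0.0496). Of 9 genes of the activating nuclear complex Rbpj had the smallest p: it averaged 94.4 ± 5.29 CPM in H3K9M and 81.5 ± 9.07 CPM in H3WT (0.21 ± 0.09, edgeR adjusted p = 0.309). Kat2b, a histone acetyltransferase, was at 0.08 ± 0.09 (0.715). Of 15 tested corepressor genes 0 were called, and Bend6 had the smallest p, at -0.49 ± 0.18 (edgeR adjusted p = 0.230).

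Markers of endothelial cells had mostly negative values too, as did those of fibroblasts and macrophages. Over all tested genes 50.5% had negative values and 1.05% were called lower in edgeR. Some genes are on more than 1 list: Vwf is endothelial and endocardial, and Egfl7 is also listed as a non-canonical ligand. Of 18 endothelial markers 16 had negative log2 fold changes and 1 fell, Robo4, at 2.03 ± 0.189 CPM in H3K9M and 4.47 ± 0.707 CPM in H3WT (-1.14 ± 0.23, edgeR adjusted p = 0.0453); that call was lost without any library except H3WT replicate 3 (up to 0.201) and with limma-voom (0.0744). The median log2 fold change was -0.59 over the endothelial, -0.42 over the endocardial (5 of 7 negative), -0.92 over the arterial (6 of 7), -0.58 over the fibroblast (7 of 9) and -0.36 over the macrophage markers (9 of 9), beside -0.53 for the 10 Notch genes. It was 0.06 over the cardiomyocyte (4 of 10 negative), 0.03 over the mural (5 of 10) and 0.62 over the epicardial and mesothelial markers (4 of 9). Of 7 tested endocardial markers 2 fell, Npr3 (-1.09 ± 0.16, edgeR adjusted p = 0.0181) and Adgrg6 (-1.46 ± 0.23, 0.0216), and of 7 arterial markers 1 fell, Bmx, at 0.682 ± 0.440 CPM in H3K9M and 4.23 ± 0.370 CPM in H3WT (-2.62 ± 0.45, edgeR adjusted p = 0.0320). Without H3WT replicate 2 the adjusted p-values of Npr3, Adgrg6 and Bmx were 0.0972, 0.109 and 0.121. Each of these 3 calls was lost in 2 or 3 of the 6 fits that left out 1 library. In the authors' deposited table Npr3 and Adgrg6 pass (DESeq2 adjusted p 3.7e-07 and 8.5e-07), while Robo4 (0.145) and Bmx (0.402) do not.

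Pecam1 and Cdh5, junction proteins of endothelium picked here after their values were seen, did not pass. Pecam1 stood at 20.5, 28.7 and 22.5 CPM in the H3K9M libraries, against 27.5, 29.5 and 44.5 CPM in the H3WT libraries (-0.50 ± 0.20, edgeR adjusted p = 0.253), and Cdh5 at 38.6, 55.7 and 38.0 CPM in H3K9M, against 53.4, 57.1 and 88.7 CPM in H3WT (-0.59 ± 0.21, 0.222). Both were highest in H3WT replicate 3, as was Notch4. Dll4 had the opposite order within H3WT, highest in replicate 1 and lowest in replicate 3. The endothelial markers did not share one order within H3WT. Kdr, Tek, Cldn5, Robo4, Sox18 and Ecscr had the order of Dll4. Flt1, Tie1, Emcn, Esam, Eng, Ptprb, Mmrn2 and Egfl7 were highest in replicate 3, and Erg and Vwf in replicate 2.

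The summed level of the 18 endothelial markers was 830 to 966 CPM in H3K9M and 926 to 1272 CPM in H3WT, and none was at 0 in all libraries (exact two-sided permutation test, p = 0.3). The largest parts of that sum were Eng, at 332 ± 15.1 CPM in H3K9M and 328 ± 23.6 CPM in H3WT, and Ptprb, at 382 ± 57.2 CPM in H3K9M and 481 ± 118 CPM in H3WT. The test of the sum therefore weighs Eng and Ptprb most and says little about the less abundant markers. The 7 endocardial markers with a row summed to 193 to 207 CPM in H3K9M and 226 to 261 CPM in H3WT (exact p = 0.1, the smallest that 3 against 3 allows), with Cgnl1 at 111 ± 9.81 CPM in H3K9M and 130 ± 20.9 CPM in H3WT as the largest part. The 7 arterial markers summed to 752 to 768 CPM in H3K9M and 598 to 781 CPM in H3WT (exact p = 0.6); most of it was Unc5b, at 691 ± 9.76 CPM in H3K9M and 614 ± 89.9 CPM in H3WT, the 1 arterial marker with a positive log2 fold change (0.17). In bulk RNA, fewer endothelial cells and less RNA of these genes per cell cannot be told apart. The part of endothelial, fibroblast or macrophage content in the Notch values was not tested.

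**Figure D5:**
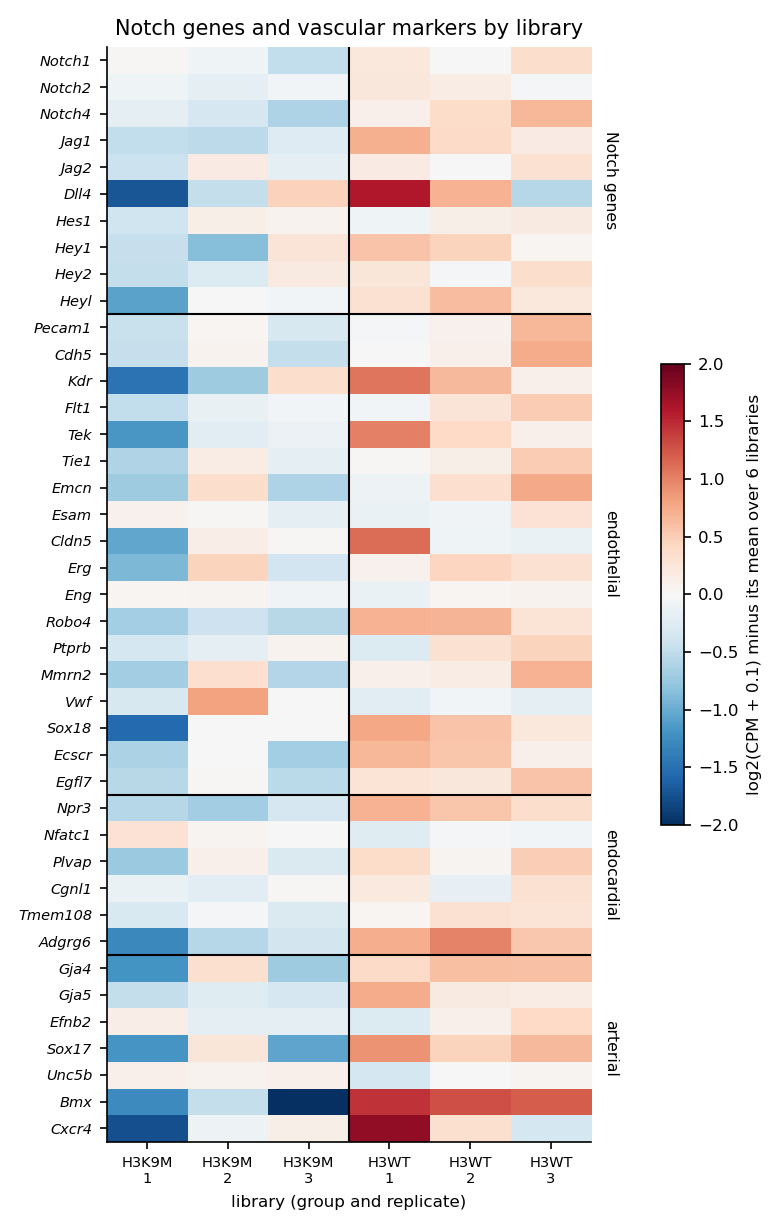
Heat map of log2(CPM + 0.1) minus its mean over 6 libraries, for the 10 Notch genes and the endothelial, endocardial and arterial markers (rows) in 3 H3K9M libraries (left) and 3 H3WT libraries (right). Blue is below and red above the mean of the gene, and values past the ends of the scale take the end colour. A negative log2 fold change is seen for 16 of 18 endothelial markers and all 10 Notch genes. Jag1 and Dll4 are highest in H3WT replicate 1, as are the endothelial markers Kdr, Tek, Cldn5, Robo4, Sox18 and Ecscr. Pecam1, Cdh5 and Notch4 are highest in H3WT replicate 3.

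Other cell types differed between libraries of a group as well. The 9 fibroblast markers summed to 11553 to 18358 CPM in H3K9M and 12870 to 19489 CPM in H3WT (exact p = 0.6), with Col1a1 at 5930 ± 1015 CPM in H3K9M and 5498 ± 504 CPM in H3WT. Of these 0 passed in edgeR, with 2 lower and 0 higher at an unadjusted p under 0.05, where 8.61% of all tested genes were lower. Col1a1 and Postn were the fibroblast markers with a positive value. Within H3WT, the fibroblast, macrophage and epicardial sums were highest in replicate 1 and lowest in replicate 3, as was Jag1. Within H3K9M, the fibroblast and macrophage sums were lowest in replicate 1, while Jag1 was nearly level in replicates 1 and 2 (64.4 and 63.1 CPM). The epicardial sum went the other way from Jag1 there, at 126, 129 and 114 CPM in H3K9M replicates 1 to 3. Jag1 and the fibroblast sum were both highest in H3K9M replicate 3, and the macrophage sum was level in replicates 2 and 3 (282 and 281 CPM). The fibroblast sum weighs Col1a1, Col1a2 and Col3a1 most, and not every fibroblast marker followed it. Pdgfra and Tcf21 were not highest in H3K9M replicate 3, and within H3WT Col1a1 and Postn were highest in replicate 2. The 10 mural markers summed to 5368 to 5486 CPM in H3K9M and 4990 to 6403 CPM in H3WT (exact p = 0.5), and the 10 cardiomyocyte markers to 27645 to 31236 CPM in H3K9M and 26165 to 32238 CPM in H3WT (exact p = 0.7). The 9 epicardial and mesothelial markers summed to 114 to 129 CPM in H3K9M and 105 to 174 CPM in H3WT (exact p = 0.7). Of these 1 rose, the keratin gene Krt8, named after its value was seen, at 8.89 ± 4.40 CPM in H3K9M and 0.917 ± 0.330 CPM in H3WT (3.27 ± 0.46, edgeR adjusted p = 0.0159). The Krt8 call was lost without H3K9M replicate 2 (0.0649) or H3WT replicate 2 (0.0979) and with limma-voom (0.0916). The 9 macrophage markers summed to 213 to 282 CPM in H3K9M and 147 to 540 CPM in H3WT (exact p = 0.7). Of 6 erythroid and platelet genes 1 had a row, at 1.76 to 2.36 CPM in H3K9M and 0.720 to 3.40 CPM in H3WT (exact p = 0.9). Their part in the Jag1 difference was not tested.

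The genes whose pattern over the 6 libraries was most like that of Jag1 were Adamtsl3, Itgb8 and Abat. Likeness was the root mean square difference between log2 CPM profiles centred on their means, over 10839 genes averaging at least 5 CPM, and it was 0.0959, 0.107 and 0.112 for these 3 genes. Adamtsl3 averaged 116 ± 11.2 CPM in H3K9M and 201 ± 57.2 CPM in H3WT (-0.79 ± 0.18, edgeR adjusted p = 0.0759). Itgb8, an integrin subunit, averaged 4.67 ± 0.189 CPM in H3K9M and 8.55 ± 1.35 CPM in H3WT (-0.87 ± 0.17, edgeR adjusted p = 0.0433), a call lost without 5 of the 6 libraries (up to 0.163), all except H3WT replicate 3, and with limma-voom (0.0666). Abat, GABA transaminase, averaged 15.1 ± 1.87 CPM in H3K9M and 25.9 ± 4.99 CPM in H3WT (-0.78 ± 0.16, edgeR adjusted p = 0.0518). In the authors' deposited table the DESeq2 adjusted p is 0.000254 for Adamtsl3, 0.229 for Itgb8 and 9.1e-05 for Abat. The 3 genes were chosen for this likeness, so their differences are a description.

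On GRCm38 (GENCODE M21) the genes other than Jag1 lie as follows. Notch1 is on chromosome 2 at 26457903 to 26516663, Dll4 on chromosome 2 at 119325784 to 119335962, Notch2 on chromosome 3 at 98013527 to 98150361 and Hey1 on chromosome 3 at 8663359 to 8667256. Heyl is on chromosome 4 at 123233556 to 123249875, Hey2 on chromosome 10 at 30832359 to 30842801, Jag2 on chromosome 12 at 112907819 to 112929776, Hes1 on chromosome 16 at 30064384 to 30067796 and Notch4 on chromosome 17 at 34564268 to 34588503. These are spans of whole genes, and counts are over exons of a gene without its isoforms being told apart. Exons of Notch1 share 1068 of 14232 bases with the antisense transcript 0610009E02Rik and 414 with Gm13568, those of Notch2 share 541 of 10782 with Gm42820, and those of Dll4 share 214 of 3852 with the antisense transcript Gm14207. The strand setting of the counting is not given in the sources used here, so reads of such partners cannot be told apart.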

How the data were processed

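Polyadenylated RNA of 6 libraries, 3 of H3K9M and 3 of H3WT cells, was counted per gene. HISAT2, featureCounts and DESeq2, with build mm10, are listed per the submitters' processing notes, without versions, annotation or strand setting. The authors deposited raw counts, whole numbers for 15159 genes in 6 columns with 55550379 to 67994773 counts each, and no row total is under 19. Their own DESeq2 comparison was also deposited by the authors: a mean normalised count as a signal, log2 fold changes and standard errors, p-values, and a Wald statistic, a score that was not used.

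Genes were filtered with filterByExpr (10 counts, 15 in total; 14758 kept), scaled with TMM and compared with the quasi-likelihood test of edgeR 4.0.16 (R 4.3.3), group as the only term, Benjamini-Hochberg adjustment over all tested genes at 0.05. The SE is the log2 fold change over the square root of F, and 95% intervals use edgeR's total degrees of freedom. Summed marker levels were compared by exact two-sided permutation, whose smallest p is 0.1 here. Precision is given by the SE and interval of each gene, which hold counting error and the spread between libraries together. Alternatives were DESeq2 1.42.0, limma-voom (limma 3.58.1), RLE factors, plain totals, 2 other filters, a block for replicate number, and the omission of each library in turn. TMM, RLE and plain totals put the median log2 fold change of all genes at -0.00, 0.00 and -0.01. Simulated counts of 14758 genes for H3K9M over H3WT gave edgeR 70% of genes changed 2-fold and 87% of those changed 4-fold, with 12 false calls among 169. On the same simulated counts DESeq2 made 34 false calls among 200 and limma-voom 6 among 159.

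The members, lists and tests were chosen with earlier results of these data known. Named genes beside the 10 members came from a rule (genes of the pathway past the threshold, those with the highest level or smallest p in each role, the leading vascular and other markers, and the 3 profiles nearest to the member with the smallest p), of which 29 of 36 are reported; Pecam1, Cdh5 and Krt8 were added after their values were seen. Kyat1, put on the list of corepressors by mistake, was left out. No library is a copy of another (chi-square per gene 26.5 to 117.8 between replicates).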

Additional observations from a re-analysis of the deposited data

How the results depend on the processing

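The count of Notch genes called lower was 1 in edgeR and with limma-voom, RLE factors, plain library totals and both other filters, 3 with DESeq2 (Jag1, Notch4 and Heyl) and 0 with the replicate block, and 0 to 1 without 1 library at a time. The count called higher was 0 in all 13 alternatives. Of 128 log2 fold changes of the 10 genes under the alternatives 127 were negative, the exception being Hes1 without H3K9M replicate 1 (0.0156; range without 1 library -0.221 to 0.0156). The other pathway genes called lower numbered 6 with DESeq2 and 1 to 3 without 1 library, with 3 without H3K9M replicate 2 (Mfap2, Egfl7 and Gja4, the last 2 named after their values were seen), and 1 in all other fits. Over all genes edgeR called 138 higher and 155 lower, DESeq2 472 and 538, the replicate block 31 and 27, and the fits without 1 library 30 to 149 and 30 to 223. Omitting H3K9M replicate 1, 2 or 3 gave 49, 46 and 50 higher genes and 49, 50 and 54 lower genes; omitting H3WT replicate 1 or 2 gave 104 and 30 higher and 89 and 30 lower genes. The cause of these differences was not tested, except that fits without a library have fewer samples.

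Whether the replicate numbers pair the samples is not known. Deviations from the group means correlated at -0.157, 0.0346 and -0.0695 for numbers 1, 2 and 3, and H3K9M replicate 1 correlated best with H3WT replicate 3 (0.163). With so few libraries per group these correlations cannot decide the question. The titles of replicates 1 and 3 share a code between the groups and those of replicate 2 do not, and what the code marks is not stated. With the replicate block Jag1 had an adjusted p of 0.107 and a log2 fold change of -0.84.

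Signs of genes near 0 turned for Notch3 with the replicate block (0.00424), and, leaving out 1 library at a time, for Notch3 (-0.292 to 0.232), Furin (-0.0821 to 0.0186), Eng (-0.0423 to 0.0554) and Col1a1 (-0.0219 to 0.224). The differences of summed marker levels, H3K9M minus H3WT, ranged without 1 library over -294 to -121 CPM (endothelial), -56.9 to -39.4 (endocardial), -3.67 to 87.9 (arterial), -74.4 to 2962 (cardiomyocyte), -722 to -15.9 (mural), -3090 to 574 (fibroblast), -28.6 to 5.70 (epicardial and mesothelial), -154 to 43.3 (macrophage) and -0.736 to 0.605 CPM (platelet); turned signs were -3.67 (arterial), 220 (fibroblast), 5.70, 43.3 and 0.605 without H3WT replicate 1, 574 (fibroblast) without H3K9M replicate 1, -74.4 (cardiomyocyte) and 0.0206 (platelet) without H3WT replicate 2, and 0.124 (platelet) without H3K9M replicate 2. These marker settings were added after seeing the data. Dll4 and Hey1 rest on 13 to 175 and 44 to 118 counts per library, and the part of depth in their intervals was not tested.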

Other observations

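The authors' deposited table gives all 10 Notch genes a negative log2 fold change, 1 of them past its adjusted p of 0.05, where 2.3% of its genes were called lower. For Hey2 the value in the authors' deposited table is -0.11, against -0.37 from the deposited counts here, and for Dll1 it is -1.63, against -0.78. The mean of the deposited counts was 3.97 times the mean normalised count of the authors' deposited table in the median gene (2.92 at the 5th and 4.53 at the 95th percentile over 14412 genes in both), and up to 4.35 times for the 10 Notch genes. The 2 tables therefore do not hold the same counts, and the reason is not given in the sources used here.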
